A study of Mus musculus with 31 samples.

Results

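The regions described here are distal peaks of accessible chromatin, found by ATAC-seq in parental NIH-3T3 cells, that carry an AP-1 consensus at their summit. A peak was taken as distal when it lay more than 1 kb from the transcription start site (TSS) of every transcript of the GENCODE M21 annotation, on the mm10 (GRCm38) mouse genome. A distal peak was called an AP-1 peak when the window reaching 50 bp to either side of its summit held the 7-bp consensus TGACTCA, or TGAGTCA, which is the same site read on the other strand. Of 63456 peaks, 47192 were distal, and 12437 of these were AP-1 peaks, which is 26.4% of distal peaks (95% Wilson interval 25.96 to 26.75%). The remaining 34755 other distal peaks serve for comparison. The same window held a consensus in 8.15% of the 16264 peaks within 1 kb of a TSS (1325 peaks, 95% interval 7.74 to 8.58%).

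All values come from 1 library of the parental line, for which the labels list neither a TF transgene nor doxycycline, although the methods of the ATAC-seq describe doxycycline for NIH-3T3 cells without naming this library. NIH-3T3 is a line of mouse embryonic fibroblasts. Nuclei of 50000 cells were exposed to the transposase Tn5, which cuts and tags DNA left free by nucleosomes, and sequenced fragments pile up over such accessible chromatin. The other 30 samples of the series, with an overexpressed TF or with rtTA3G as their control, were not analysed here. A single library gives no replicate error and no test, peaks are not replicates, and every interval covers counting error only. The cell type was checked on the promoters of marker genes, counted as open when a peak lay within 1 kb of a coding TSS. Of 10 fibroblast genes, 9 had an open promoter (all but Thy1), against 1 of 5 epithelial genes (Krt8) and 1 of 10 blood genes (Spi1). Over all coding genes the promoter was open in 11403 of 21853.

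AP-1 is a dimer of basic leucine zipper proteins, in most cases a Jun with a Fos or ATF family partner. Its subunits are induced or activated within minutes by serum, growth factors and stress through MAP kinases. In fibroblasts it is known for acting at enhancers of genes for proliferation, adhesion, matrix turnover and wound repair. Binding of AP-1 was not measured in this library, so a site below is a match to the consensus letters and not an occupied site.

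The windows below show what an AP-1 peak looks like in sequence, first for a peak of median height, then for peaks with close sites, and then for peaks next to genes of AP-1 subunits and AP-1 targets. All are the plus strand of mm10 from 5′ to 3′, centred on the summit, with the consensus in capitals.
Tgfbr3 peak: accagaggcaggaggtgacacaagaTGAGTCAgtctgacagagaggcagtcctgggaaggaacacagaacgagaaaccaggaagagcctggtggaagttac
Pwp1 peak: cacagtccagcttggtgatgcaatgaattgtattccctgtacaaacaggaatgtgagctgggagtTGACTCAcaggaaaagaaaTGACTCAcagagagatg
Cemip2 peak: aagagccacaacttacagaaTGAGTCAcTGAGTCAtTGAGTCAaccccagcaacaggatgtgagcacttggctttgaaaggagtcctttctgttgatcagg
Hspa13 peak: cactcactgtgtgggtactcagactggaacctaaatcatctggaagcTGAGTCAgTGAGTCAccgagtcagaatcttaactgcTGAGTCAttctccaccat
Jun peak: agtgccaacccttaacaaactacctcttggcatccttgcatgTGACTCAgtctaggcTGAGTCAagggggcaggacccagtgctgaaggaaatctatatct
Fos peak: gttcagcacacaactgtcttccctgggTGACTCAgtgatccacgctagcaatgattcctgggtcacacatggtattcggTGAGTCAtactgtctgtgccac
Fosl2 peak: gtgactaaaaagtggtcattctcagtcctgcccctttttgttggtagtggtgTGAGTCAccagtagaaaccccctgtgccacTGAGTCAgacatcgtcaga
Gja1 peak: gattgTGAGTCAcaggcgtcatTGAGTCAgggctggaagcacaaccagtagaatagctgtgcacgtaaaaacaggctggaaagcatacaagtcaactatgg
Cd44 peak: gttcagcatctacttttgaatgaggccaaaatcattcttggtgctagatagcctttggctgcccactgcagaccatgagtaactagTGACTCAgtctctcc
Hmox1 peak: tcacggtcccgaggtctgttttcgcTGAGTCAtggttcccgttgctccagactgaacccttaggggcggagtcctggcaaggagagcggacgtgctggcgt
Ptgs2 peak: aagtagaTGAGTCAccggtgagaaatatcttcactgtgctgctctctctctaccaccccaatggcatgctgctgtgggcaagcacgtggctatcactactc
Each is named after the nearest coding gene. The Tgfbr3 window (chr5:107120078-107120178) lies in an intron of this TGF-β co-receptor gene, 12.8 kb from its TSS, and had a fold enrichment of 6.31, the median of all AP-1 peaks. The Pwp1 window (chr10:85739692-85739792) lies between genes, holds 2 sites on the same strand 18 and 37 bp from the summit, and was the tallest AP-1 peak with more than 1 site, at a fold enrichment of 22.5. The Cemip2 window (chr19:21863700-21863800) lies between genes and holds 3 sites in a row, each 8 bp from the next and on the same strand, at a fold enrichment of 12.53. In the Hspa13 window (chr16:75753021-75753121), in an intron, the first 2 of 3 sites stand 8 bp apart in the same way and the fold enrichment was 11.6. Close repeats of this kind were rare, as the spacing counts show further on.

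Of the 7 AP-1 subunit genes with an AP-1 peak, the tallest held 2 sites for Jun, Fosl2 and Fos and 1 site for Fosb, Atf3, Batf3 and Jdp2, where fold enrichments were 2.96 to 7.97. The Jun window (chr4:95203719-95203819) lies 152 kb from the Jun TSS in an intron of another annotated gene, with sites on opposite strands to either side of the summit, and had a fold enrichment of 13.6. The Fosl2 window (chr5:32055796-32055896), also in an intron of another annotated gene, lies 80.0 kb from the Fosl2 TSS and reached 13.4. The Fos window (chr12:85519698-85519798) lies between genes 45.9 kb from the Fos TSS and reached 7.78. Among target genes, the Gja1 window (chr10:56582270-56582370, between genes, 203 kb from the TSS of this connexin gene) holds 2 sites and reached 16.02. The Cd44 window (chr2:102873352-102873452), in an intron 27.9 kb from the TSS of this hyaluronan receptor gene, reached 13.1 with 1 site. The Hmox1 window (chr8:75083983-75084083) lies between genes 9.59 kb from the TSS of heme oxygenase 1 and reached 14.2, and the Ptgs2 window (chr1:150151521-150151621) lies between genes 51.2 kb from the TSS of cyclooxygenase 2 and reached 17.4.

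AP-1 peaks were taller than other distal peaks. Height is given as the fold enrichment deposited by the authors, which is the fragment pileup at the summit over the pileup expected locally. Its median was 6.31 in AP-1 peaks (95% interval from order statistics 6.30 to 6.45, quartiles 4.56 and 9.36, highest 24.2) and 5.30 in other distal peaks (95% interval 5.25 to 5.36, quartiles 3.94 and 7.72), a ratio of 1.19. This ratio was above 1 on 20 of 20 chromosomes (1 to 19 and X), from 1.09 to 1.27. In fragments at the summit, the median was 30 in AP-1 peaks (quartiles 20 and 49, lowest 10, highest 227) and 24 in other distal peaks. A fold enrichment of at least 10 was reached by 2629 AP-1 peaks, or 21.1% (95% interval 20.4 to 21.9%), against 15.2% of all distal peaks and 13.1% of other distal peaks. The 5 tallest AP-1 peaks, with fold enrichments of 22.4 to 24.2 and 86 to 149 fragments, all lay between genes, nearest to Gm7233, Shcbp1l, Gnpda2, Pwp1 and Rpe65. The tallest distal peaks were not AP-1 peaks, since other distal peaks reached 62.07. Other distal peaks also had extremes of 17125 bp in width and 1216 fragments, against 1912 bp and 227 fragments in AP-1 peaks. Whether such extremes are artefacts was not tested. In bulk chromatin, a region open in few cells and one weakly open in many cannot be told apart.

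Seen from the side of height, the consensus became more frequent with every decile of distal peaks by fold enrichment. It was present in 14.3% of the lowest decile (95% interval 13.3 to 15.3%), in 24.8% of the fifth decile and in 37.97% of the highest decile (1792 of 4720 peaks, 95% interval 36.6 to 39.4%). The share with 2 or more sites went from 0.614% to 3.64% between the lowest and highest decile. The median GC content of the window was 48.5% in all deciles but the highest, where it was 47.5%. Height also went with peak width, and the median width was 309 bp for AP-1 peaks and 268 bp for other distal peaks. Within quintiles of width the median fold enrichment of AP-1 and other distal peaks was 3.94 and 3.85 in the narrowest peaks and 10.5 and 9.54 in the widest. In the quintiles between, from narrow to wide, it was 4.79 and 4.41, 6.00 and 5.30, and 8.14 and 7.09. Within quintiles of GC content, the ratio of the medians was 1.15 in the quintile with the least GC, at most 1.24 in those between, and 1.20 in the quintile with the most GC.

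**Figure D1:**
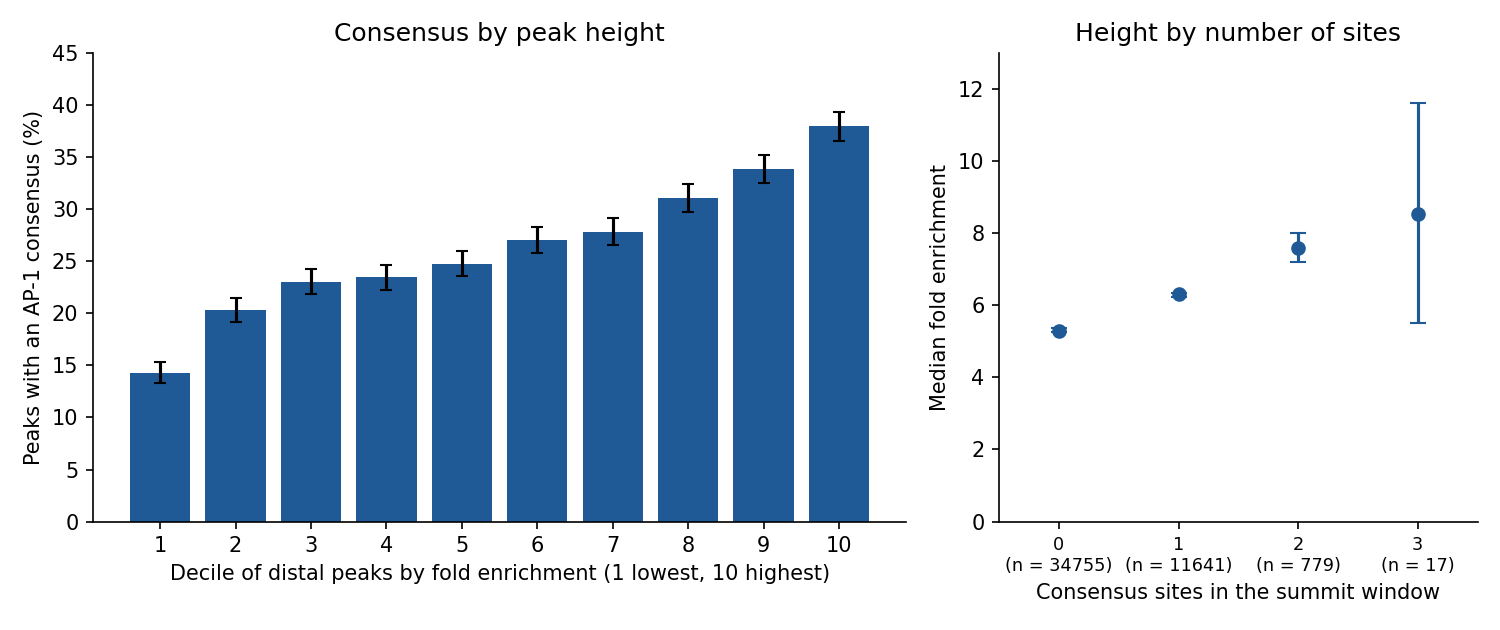
Left, the share of distal peaks with an AP-1 consensus in the summit window (y axis, %) in each decile of distal peaks by fold enrichment (x axis), with 95% Wilson intervals. Right, the median fold enrichment (y axis) by the number of consensus sites in the window (x axis), with 95% order-statistic intervals. The share climbs from 14.3% to 37.97%, and the median from 5.30 without a site to 7.59 with 2 sites.

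Most AP-1 peaks had a single site. The window held 1 site in 11641 AP-1 peaks (93.6%), 2 sites in 779 (6.26%) and 3 sites in 17 (0.137%). Height followed this number. The median fold enrichment was 6.30 with 1 site (95% interval 6.23 to 6.34), 7.59 with 2 sites (7.20 to 8.01) and 8.53 with 3 sites, where the interval of 5.52 to 11.6 over 17 peaks overlaps both of the others. The share in the highest decile of distal peaks was 13.9% with 1 site and 21.4% with 2 sites (95% interval 18.7 to 24.5%). Over the whole peak in place of the window, 9757 AP-1 peaks had 1 site, 2217 had 2 and 270 had 3, with median fold enrichments of 6.04, 8.11 and 9.83. Their median widths were 283, 423 and 584 bp, so number of sites, height and width rose together over the whole peak, and their parts were not tested. In 150 AP-1 peaks the site of the window lay outside the called interval. These were narrow peaks, with a median width of 136 bp and a median fold enrichment of 3.55.

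The sites were concentrated around the summit but not on its central bases. Across all distal peaks the consensus was found 1.76 times per 1000 peaks and 10 bp at the left edge of a 1000-bp region centred on the summit. It was found 28.3 times from the summit to 9 bp to its right, 39.96 times in the bin from 20 to 29 bp to the right, and 36.3 times in the matching bin on the left. Counted over the AP-1 peaks by distance to either side, sites were least frequent near the summit and at the rim of the window, with 108 sites per position at 0 to 2 bp and 107 at 42 to 44 bp. There were maxima of 189 sites per position at 6 to 8 bp and of 214 at 21 to 23 bp, with a minimum of 119 between them at 12 to 14 bp. The nearest site lay within 20 bp of the summit in 44.4% of AP-1 peaks (95% interval 43.5 to 45.2%) and within 30 bp in 71.6%. Height changed little with this distance. Among AP-1 peaks with 1 site the median fold enrichment was 6.01 at 0 to 5 bp (95% interval 5.78 to 6.21), 6.57 at 18 to 25 bp (6.34 to 6.83) and 6.27 at 36 to 47 bp (6.04 to 6.43). The edge of the window did not mark a step in height either, with a median of 6.28 for the 1919 AP-1 peaks whose nearest site centre lay 38 to 47 bp from the summit. It was 6.30 for the 1487 other distal peaks with a site 48 to 57 bp away, just outside.

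**Figure D2:**
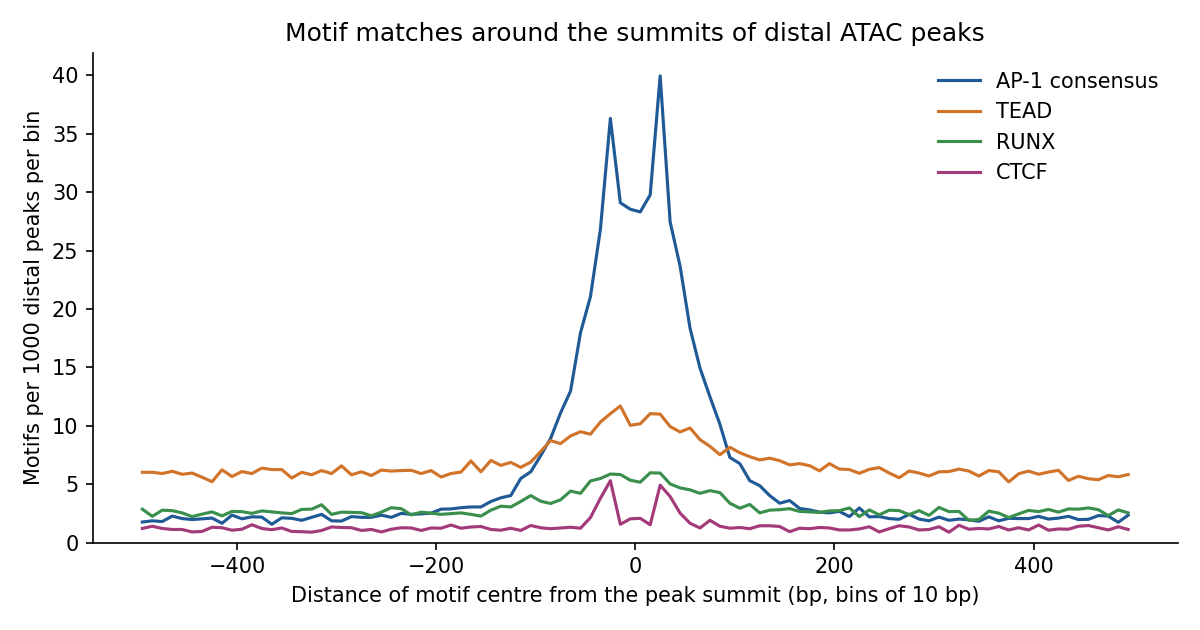
Number of motif matches per 1000 distal peaks in bins of 10 bp (y axis) by distance of the motif centre from the summit (x axis, bp), for the AP-1 consensus and the TEAD, RUNX and CTCF motifs. The AP-1 curve rises from 1.76 at the left edge to 39.96 in the bin from 20 to 29 bp to the right of the summit, with 28.3 in the bin that starts at the summit.

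The spacing of sites was uneven. The windows of AP-1 peaks held 813 pairs of neighbouring sites, measured from centre to centre. Only 23 pairs (2.83%, 95% interval 1.89 to 4.21%) were 7 to 9 bp apart, such as those of the Cemip2 and Hspa13 windows, and 178 (21.9%) were 10 to 17 bp apart. The most frequent single spacings were 10 bp and 25 bp, with 29 pairs each, followed by 11 bp with 26. Without peaks whose summit was soft-masked, 10 bp and 11 bp had 25 pairs each, 12 bp had 24 and 25 bp had 22. At 9 bp there were 4 pairs. Since a window has room for more pairs at short spacings, peaks with 2 sites were also divided by the positions open to each spacing, which gave 7.28 peaks per bp at 7 to 9 bp, 24.3 at 10 to 17 bp, 15.3 at 26 to 35 bp and 19.2 at 51 to 94 bp. Both sites read on the same strand in 466 pairs (57.3%, 95% interval 53.9 to 60.7%), as in the Pwp1 and Gja1 windows. They converged in 183 pairs (22.5%) and diverged in 164 (20.2%). Height did not order the spacings. The median fold enrichment was 7.73 at 10 to 17 bp (95% interval 6.77 to 9.16) and 7.99 at 51 to 94 bp (7.44 to 9.28), and all classes overlapped. Of the pairs, 70 (8.61%) lay in peaks whose summit was soft-masked, that is marked as repeated sequence in the reference.

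**Figure D3:**
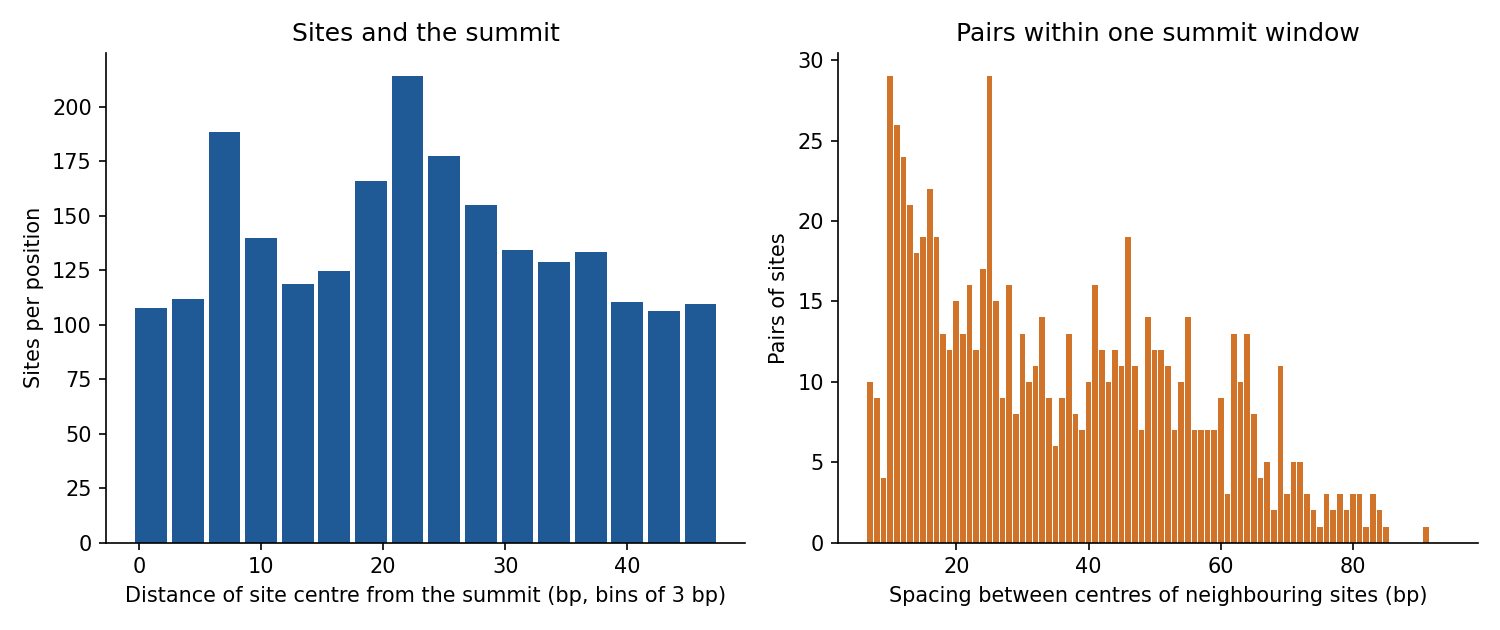
Left, consensus sites per position (y axis) by the distance of the site centre from the summit (x axis, bins of 3 bp) in AP-1 peaks, with maxima of 189 at 6 to 8 bp and 214 at 21 to 23 bp. Right, number of pairs of neighbouring sites (y axis) by their spacing in bp (x axis), with 4 pairs at 9 bp and 29 each at 10 and 25 bp.

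AP-1 peaks took up a small share of the consensus sites of the genome. Chromosomes 1 to 19, X and Y hold 433145 sites, of which 26847 (6.20%, 95% interval 6.13 to 6.27%) lay in a peak. Among 407586 sites more than 1 kb from a TSS, 23471 (5.76%) lay in a distal peak and 13250 (3.25%) in the summit window of one, which are the sites of the AP-1 peaks. For scale, 0.645% of all positions of the distal genome lay in a distal peak. Of 8192 words of 7 bases, each counted with its reverse complement, only 3 had a share in distal peaks at least as high as the consensus, itself included, and the median word had 0.733%. Among the 1760 words with the same GC content and no CpG, none but the consensus reached its share. Sites in soft-masked sequence lay in a distal peak less often, at 2.83% against 6.57% elsewhere. The share also went with GC content, from 1.35% of sites with at most 35 G or C bases in the sequence up to 50 bp to either side to 10.6% of those with 51 or more.

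The bases next to the site went with a large difference in accessibility. Read in the direction of TGACTCA, sites preceded by T and followed by A lay in a distal peak in 1.07% of cases (215 of 20181, 95% interval 0.933 to 1.22%). Sites preceded by G and followed by T did so in 10.1% (2149 of 21288, 95% interval 9.70 to 10.5%). Since the consensus reads as TGAGTCA on the other strand, each class was counted once, in the direction with C at the centre. A preceding T gave 2.49% and a preceding G 8.13%, with 6.39% for A and 5.41% for C. A following A gave 2.59% and a following C 7.77%, with 7.05% for T and 5.81% for G. Both ends of this order held in each class of GC content. With up to 40 G or C bases in this sequence the lowest and highest pair of flanks had 0.475% and 4.795%, and with over 50 they had 3.46% and 18.3%. The flanks did not order the height of the peaks in the same way. Over AP-1 peaks with 1 site, the median fold enrichment was 5.38 with T before and A after (55 peaks, 95% interval 4.73 to 7.35) and 6.30 with G before and T after (1183 peaks, 6.14 to 6.57). It was highest, at 6.79 (95% interval 6.27 to 7.06), with T before and C after, a pair of flanks with only 3.35% of its sites in a distal peak.

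Sites near another site lay in peaks far more often. Of distal sites with another consensus 7 to 20 bp away, 25.5% (858 of 3361, 95% interval 24.1 to 27.0%) lay in a distal peak. The share was 24.97% at 21 to 50 bp, 20.1% at 51 to 100 bp, 11.7% from over 100 to 200 bp and 5.05% from over 500 to 1000 bp, and it was 3.52% for sites more than 5 kb from the next. Neighbouring sites share a peak, so these sites are not independent of each other. Shares were also higher for close than for isolated sites within classes of GC content, from 1.47% at over 5 kb to 12.4% at 7 to 20 bp and 12.6% at 21 to 50 bp where GC was low, and from 6.996% at over 5 kb to 39.7% at 7 to 20 bp where it was high. Soft-masked sites made up 8.48% of the closest class and 23.0% of the most isolated, and without them the shares were 26.6% and 4.04%.

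**Figure D4:**
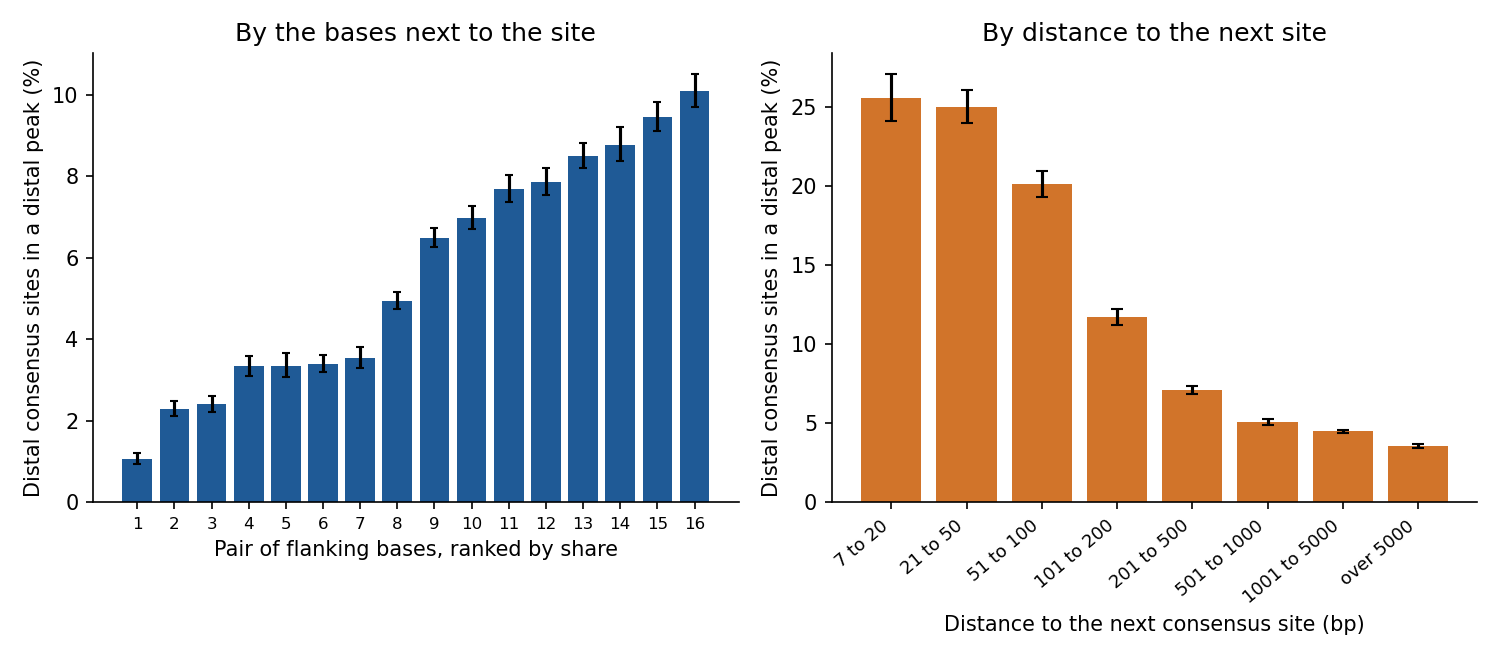
Share of distal consensus sites that lie in a distal peak (y axes, %, with 95% Wilson intervals), left by the pair of bases next to the site ranked from lowest to highest (x axis), right by distance to the next consensus site (x axis, bp). The left panel runs from 1.07% (T before, A after) to 10.1% (G before, T after), the right from 25.5% at 7 to 20 bp to 3.52% beyond 5 kb.

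Motifs of other factors were searched on both strands in the same summit windows, with the letters of the AP-1 sites masked, and in windows 500 bp to either side of the summit. Since masking takes the letters of the defining site out of the search, matches were counted per 10000 start positions free of AP-1 sites. For a motif of 6 bases, AP-1 peaks had 83.5 such positions per window and other distal peaks 96. The motif that differed most was AGGGGGC, a core of the motif of CTCF, the factor that anchors chromatin loops together with cohesin. It had 1.07 matches per 10000 positions in AP-1 peaks (95% interval 0.882 to 1.29) and 3.77 in other distal peaks (3.57 to 3.99), a ratio of 0.282. It was present in 0.868% of AP-1 peaks (108 peaks) and in 3.53% of other distal peaks, with 1.05% and 1.16% in the flanking windows. For CATTCC, the motif of the TEAD factors that act with YAP and TAZ, there were 9.33 matches (8.76 to 9.94) and 10.8 (10.4 to 11.1), and for SOX (CATTGT) 8.27 (7.74 to 8.84) and 9.21 (8.89 to 9.54). These 3 motifs were the ones whose intervals did not overlap, and for SOX they lay close together. Matches that share letters with an AP-1 site are left out of these counts. With those letters kept, TEAD was present in 8.72% of AP-1 and 9.81% of other distal peaks, and SOX in 7.98% and 8.35%. With them masked, AP-1 peaks had 7.41% for TEAD and 6.71% for SOX.

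The intervals of the 2 groups overlapped for the other 11 motifs, with ratios of AP-1 to other distal peaks from 0.752 to 1.10. For TGTGGTT, bound by RUNX factors, there were 5.44 matches per 10000 positions in AP-1 peaks and 5.73 in other distal peaks, and for NFI (TTGGCA) 8.504 and 8.65. The values were 5.27 and 5.08 for C/EBP (TTGCNNAA), 4.34 and 3.94 for STAT (TTCNNNGAA), and 8.57 and 7.83 for the E-box CAGCTG. The lowest ratio of these was that of CRE (TGACGTCA), which differs from the consensus by 1 inserted base, on 18 matches in AP-1 peaks and 79 in other distal peaks. ETS (CCGGAAG), KLF (CCCACCC), the GATA motif GATAAG, the E-box CACGTG and the SRF CArG box had ratios between these. With the letters of the AP-1 sites kept, CAGCTG was present in 8.54% of AP-1 peaks (6.96% masked) and in 7.15% of other distal peaks. Against their own flanks, TEAD and RUNX motifs were more frequent at the summits of AP-1 peaks, in 7.41% against 5.36% and in 4.33% against 2.63%, and the GATA motif was less frequent, in 1.705% against 3.13%. The same held in other distal peaks, with 9.81% against 5.39% for TEAD, 5.30% against 2.49% for RUNX and 2.11% against 3.29% for GATA. AP-1 peaks with and without an additional motif differed little in height for 4 of 5 motifs. The median fold enrichment was 6.61 with TEAD (95% interval 6.38 to 7.08) and 6.30 without, 6.54 with RUNX (6.02 to 6.86) and 6.30 without, 6.44 with NFI (6.26 to 6.72) and 6.30 without, and 6.26 with CTCF (5.63 to 7.09) and 6.31 without. It was 7.03 with ETS (69 peaks, 6.04 to 8.11) and 6.30 without, where the interval includes the lower value.

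AP-1 peaks lay somewhat more often in introns and somewhat farther from the nearest coding TSS. Their summits were in introns in 51.1% of cases (95% interval 50.2 to 51.9%), between genes in 45.6% and in exons in 3.38%, against 48.4%, 47.6% and 4.00% of other distal peaks. The difference of 2.62 percentage points for introns (95% Newcombe interval 1.59 to 3.64) had the same sign on 19 of 20 chromosomes. The median distance to the nearest coding TSS was 32.6 kb in AP-1 peaks (95% interval 31.7 to 33.6 kb) and 29.1 kb in other distal peaks (28.5 to 29.6 kb), longer in AP-1 peaks on 18 of 20 chromosomes. More than 100 kb separated 21.7% of AP-1 peaks and 19.3% of other distal peaks from a coding TSS. The summit was soft-masked in 10.4% and 10.3%. No CpG was present in 37.0% of AP-1 windows and in 32.2% of the others. The nearest coding gene had an open promoter for 69.4% of AP-1 peaks (95% interval 68.6 to 70.2%) and for 68.2% of other distal peaks, a difference of 1.19 percentage points (95% Newcombe interval 0.237 to 2.13).

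AP-1 peaks were grouped about as tightly as other distal peaks. Another distal peak lay within 12500 bp of 64.6% of AP-1 peaks and of 64.2% of other distal peaks, a difference of 0.375 percentage points with a 95% Newcombe interval of -0.608 to 1.35. This difference turned to -0.231 within 5 kb. The median distance to the nearest distal peak was 7610 bp and 7649 bp. AP-1 peaks had an AP-1 peak as their nearest neighbour slightly more often, in 27.6% of cases (95% interval 26.8 to 28.4%) against 25.9% for other distal peaks (25.4 to 26.3%), where 26.4% of all distal peaks are AP-1 peaks. By distance to the neighbour, the shares were furthest apart at 1 to 5 kb, with 30.1% (95% interval 28.6 to 31.6%) against 26.6%, and they were 22.1% and 21.7% below 1 kb. Distal peaks less than 12500 bp apart were joined into 26723 clusters, of which 16433 held a single peak. The share of AP-1 peaks was 26.1% in these, 26.3% in clusters of 2 peaks, 26.7% in clusters of 3 to 4, 26.5% in clusters of 5 to 9 and 26.1% in clusters of 10 or more. Of 1290 clusters with at least 5 peaks, 228 held no AP-1 peak and 33 held 5 or more.

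The largest gathering of AP-1 peaks was a cluster of 111 kb between genes on chromosome 2 (chr2:116912468-117023722), with 8 AP-1 peaks among 22 distal peaks. Its AP-1 peaks had fold enrichments from 5.76 to 14.2. The nearest coding gene was Tmco5 for 6 of them and Spred1, a negative regulator of Ras signalling, for the other 2. On chromosome 7 (chr7:113140042-113196457) a cluster of 56.4 kb held 7 AP-1 peaks among 13, all nearest to Arntl, which encodes the circadian factor BMAL1, with fold enrichments of 4.97 to 10.4. A cluster over the formin gene Fmnl2 on the same chromosome as the first (chr2:52930204-52983195) held 6 among 12, with a median fold enrichment of 9.01. On chromosome 15 (chr15:66844127-66904568) 6 of 14 peaks were AP-1 peaks, and 5 of these were nearest to Ccn4, a matricellular protein gene. A cluster of 27 distal peaks over Emp1 and Pbp2 on chromosome 6 (chr6:135279087-135400572) held only 6, at a median fold enrichment of 4.37.

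AP-1 peaks were next to 6057 coding genes, or 27.7% of the 21853 coding genes with a TSS, when each peak was given to the nearest coding TSS. Such an assignment rests on distance alone. Only 11511 of the 21853 genes were nearest to a distal peak of any kind, and the rest could not have an AP-1 peak. Of these genes 3339 had 1 AP-1 peak, 1294 had 2, 427 had 5 to 9 and 64 had 10 or more. The promoter was open in 60.8% of the genes with 1 AP-1 peak and in 81.3% of those with 10 or more, against 47.3% of the genes with none, but it also went with the number of distal peaks of any kind. Among genes with 1 distal peak it was open in 54.7% where that was an AP-1 peak (95% interval 51.5 to 58.0%) and in 55.5% where it was not. With 2 distal peaks it was open in 61.9% with an AP-1 peak among them (58.8 to 64.9%) and 56.0% without (53.3 to 58.7%). The shares with and without were 61.8% and 60.2% at 3 to 4 distal peaks, and 67.4% and 66.9% at 5 to 9. At 10 or more they were 75.7% and 65.2%, the latter over only 23 genes. Of the genes nearest to no distal peak it was open in 42.2%. The genes named next were picked for their number of AP-1 peaks, which by itself favours high shares of AP-1 peaks. Sox9, a transcription factor of cartilage and of several progenitor cells, had the most, with 27 AP-1 peaks among its 58 distal peaks (46.6%). They lay 12.7 to 753 kb from its TSS and had fold enrichments of 2.35 to 16.03 with a median of 7.15. Klf6, a zinc finger factor, and Trps1, a repressor of the GATA family, had 20 AP-1 peaks each, of 56 and 53 distal peaks, with median fold enrichments of 8.504 and 5.52.

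Next came Sox5 with 18 of 41 distal peaks and Myc with 18 of 64. Sox5, a SOX factor without a transactivation domain, had no promoter peak, and 2 of its 18 AP-1 peaks lay between genes. Myc, the driver of growth and proliferation, had a share of AP-1 peaks of 28.1%, close to that of all distal peaks, at a median fold enrichment of 4.57. Ets1, a factor known to act together with AP-1, had 17 of 42 (40.5%), and the Arf GTPase regulator Asap1 had 17 of 46. Mbnl1, a regulator of splicing, had 16 of 36 with fold enrichments up to 21.1. The phosphodiesterase gene Pde4d had 15 of 38, all within genes. Has2, which makes hyaluronan, had 14 of 39 with fold enrichments up to 17.3. The genes Kcna4, Abcc12, Fggy and Adra1b also had 14 each and Utrn had 13. Kcna4, a potassium channel gene, and Abcc12, a transporter gene, had no promoter peak, although 14 of 23 distal peaks nearest to Abcc12 (60.9%) were AP-1 peaks. The distances differed widely between these genes, with a median of 280 kb to the TSS for Sox9, 288 kb for Myc and 30.3 kb for Adra1b.

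Genes of the AP-1 subunits had AP-1 peaks next to them in 7 of 11 cases, against 27.7% of all coding genes. Jun had 7 AP-1 peaks of 25 distal peaks, and Fosl2, which encodes the Fos relative FRA2, had 7 of 14. Jdp2, a repressor of AP-1, had 3 of 7, Fosb had 2 of 5, the stress-induced Atf3 had 2 of 7, Fos had 1 of 7 and Batf3 had 1 of 2. Fosl1 and Batf each had 1 distal peak without a consensus in the summit window. Junb and Jund were nearest to no distal peak, but like the other subunit genes except Batf and Batf3 they had an open promoter. Over the list, 23 of 69 distal peaks were AP-1 peaks (33.3%, 95% interval 23.4 to 45.1%), an interval that includes the 26.4% of all distal peaks.

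Among 20 genes known as AP-1 targets, 14 had an AP-1 peak, against 27.7% of all coding genes. Of their 126 distal peaks, 37 were AP-1 peaks (29.4%, 95% interval 22.1 to 37.8%), an interval that includes the 26.4% of all distal peaks. Gja1 had the most, 9 of 21, followed by Cd44 with 5 of 19, Ptgs2 with 4 of 16, and the cyclin gene Ccnd1 and the chemokine gene Ccl2 with 3 each, of 7 and 6. Hbegf, an EGF receptor ligand, had 2 of 4, and the phosphatase gene Dusp1 had 2 of 3. For the urokinase receptor gene Plaur the only AP-1 peak, in an intron 8.08 kb from the TSS, reached a fold enrichment of 12.3, while that of urokinase itself, Plau, reached 5.48. The Mmp genes of the list, textbook targets of AP-1, were without AP-1 peaks, which by definition are distal. Mmp3, Mmp9 and Mmp10 were nearest to no distal peak, Mmp13 to 1 that was not an AP-1 peak, and none of these 4 genes had an open promoter. Il6 and Timp1 had an open promoter and 1 distal peak each, which was not an AP-1 peak. A consensus in their promoter peaks would not count here, since peaks within 1 kb of a TSS are left out.

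All 12 genes of the extracellular matrix list had an AP-1 peak, against 27.7% of all coding genes, and all but Postn had an open promoter. All 12 were also nearest to a distal peak of some kind, against 11511 of all 21853 coding genes. Tenascin C (Tnc) had 11 AP-1 peaks of 33 distal peaks with fold enrichments up to 12.8, fibronectin (Fn1) had 10 of 25 up to 17.1, and Thbs1 had 6 of 31. Col5a2 had 5 of 13, Col1a1 and Col3a1 had 4 each of 9 and 21, and Col1a2 had 3 of 21. As a share of distal peaks this list had 27.5% (52 of 189, 95% interval 21.6 to 34.3%). The lists of growth factor signalling (29 of 106, 27.4%), actin and focal adhesion (34 of 127, 26.8%) and YAP/TEAD targets (18 of 76, 23.7%) also had intervals that include 26.4%. Within them the adhesion scaffold gene Lpp had 10 of 34, Vcl had 6 of 14, the growth factor antagonist gene Spry2 had 9 of 26, and Met had 6 of 17 with a median fold enrichment of 15.03.

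Among genes of other cell types, an AP-1 peak was next to 1 of 10 hepatocyte genes and 2 of 10 blood genes, but also to 7 of 12 neuronal genes. The share over all coding genes was 27.7%. Only 5 of the hepatocyte, 5 of the blood and 9 of the neuronal genes were nearest to any distal peak. Of the distal peaks nearest to hepatocyte genes, 1 of 25 was an AP-1 peak (4.00%, 95% interval 0.710 to 19.5%), which lies below the 26.4% of all distal peaks, and 15 of these peaks, including the AP-1 peak, belonged to Apob alone. Neuronal genes had 11 of 47 (23.4%) and blood genes 3 of 14. Ribosomal protein genes, expressed in every cell, had an open promoter in 17 of 17 cases but an AP-1 peak in 3. Of these 17 genes, 12 were nearest to a distal peak, and 4 of their 25 distal peaks were AP-1 peaks (95% interval 6.40 to 34.7%). The fibroblast marker genes used above had an AP-1 peak in 6 of 10 cases, at 15 of 81 distal peaks (18.5%, 95% interval 11.6 to 28.3%), among them Prrx1 with 3 of 10 and Twist2 with 3 of 17. The epithelial genes had one in 2 of 5 cases, at 2 of 15 distal peaks (95% interval 3.74 to 37.9%).

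**Figure D5:**
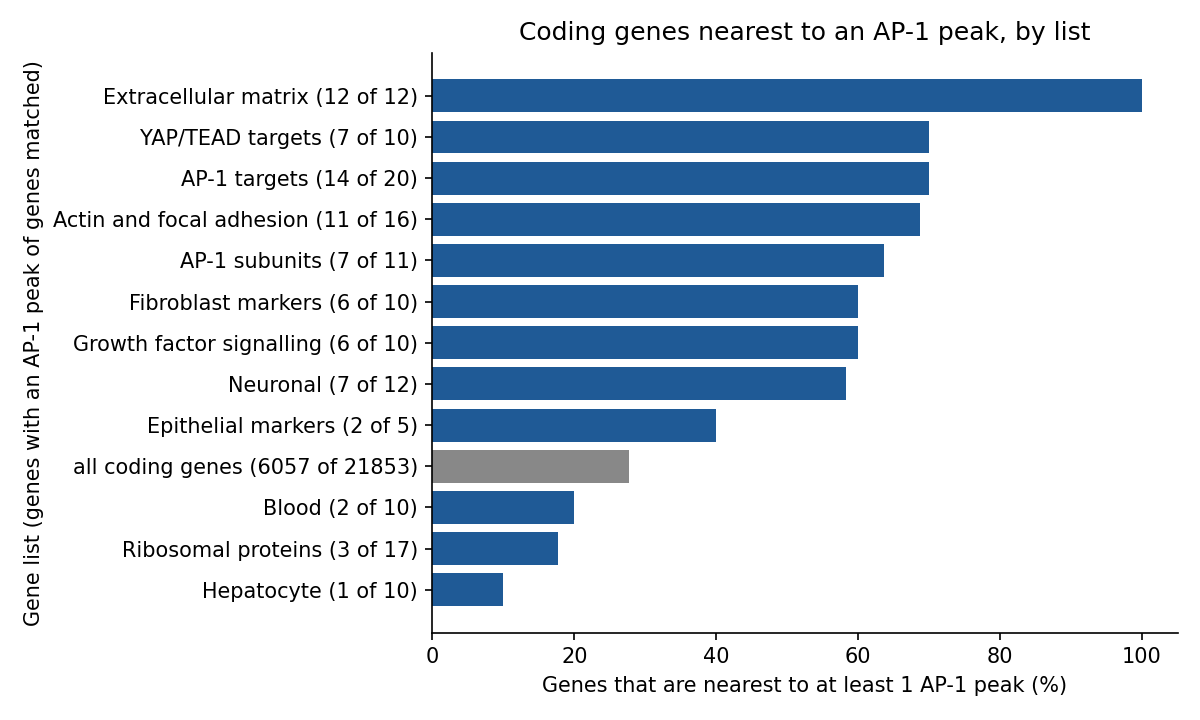
Share of the genes of each list that are the nearest coding gene of at least 1 AP-1 peak (x axis, %), with the numbers of genes beside the list names (y axis). All 12 extracellular matrix genes and 14 of 20 AP-1 targets had one, against 1 of 10 hepatocyte genes and 27.7% of all coding genes (grey). Genes nearest to no distal peak count as genes without an AP-1 peak.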

How the data were processed

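The peak list of 1 ATAC-seq library of parental NIH-3T3 cells was used. Paired reads had been mapped by the authors to mm10 with STAR 2.5.3a, and only unique hits on the autosomes, X and Y were retained. Picard then took out duplicates, and MACS2 2.1.1.20160309 called peaks from whole fragments (versions per the submitters' processing notes). No correction for the Tn5 cut offset is described. The deposited fold enrichment is a ratio of the pileup at the summit to the local expectation, each with 1 added, and MACS2 drew the deposited −log10 p, and the −log10 q adjusted for multiple testing, from a Poisson model. The read total is not part of the list. Fragments at the summit were therefore solved from fold enrichment and −log10 p, which matched within 0.02 for 99.97% of peaks, and the solution was tested on simulated data.

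Coordinates are mm10, counted from 1. Sequence came from the GRCm38 RefSeq assembly and genes from GENCODE M21. A site counted when it lay wholly in the window. Motifs were searched as letters on both strands. Shares have 95% Wilson intervals, differences Newcombe intervals and medians order-statistic intervals. With 1 library no test was made. One gene of the AP-1 target list counts in the list's totals but is not reported here by name. Named were the 5 tallest AP-1 peaks, the 5 with the most sites, 2 of median height, the tallest of each AP-1 target gene, the 5 largest clusters, the 15 genes with the most AP-1 peaks and the members of 12 gene lists, of which only some are printed. Peaks of subunit genes were added after their values were seen. Motif matches per free position and open promoters by number of distal peaks were added after the shares had been seen. Members, motifs and lists were chosen with earlier results of these data known. Tools were SciPy 1.17.1, pandas 2.3.3 and NumPy 2.4.6 under Python 3.11.15, with matplotlib 3.10.9 for plots.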

Additional observations from a re-analysis of the deposited data

How the results depend on the processing

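All values describe 1 library, and no alternative can stand in for a replicate. Peaks with few fragments are called less surely, and 24.9% of AP-1 peaks had under 20 fragments at the summit, against 35.1% of other distal peaks and 32.4% of all distal peaks. Of 102 alternative settings, 78 left a result within its own interval (for the count of genes, within a factor of 1.5), 22 moved it and 2 turned its direction. The share of distal peaks with the consensus was 28.5% at a q of 1e-05 or below, 30.7% at a fold enrichment of at least 5, 26.8% with a distal limit of 5 kb, 13.5% with a window of 25 bp to either side, 36.5% with 100 bp and 21.7% over all peaks. The ratio of median heights stayed above 1 in each of its 12 alternatives, at 1.17 for a q of 0.01 or below, 1.13 for 1e-05, 1.10 for a fold enrichment of at least 5, 1.14 with the narrower window, 1.25 for fragments and 1.46 for −log10 q. Peaks with 2 or more sites made up 7.37% of AP-1 peaks at a fold enrichment of at least 5, against 6.40%. A site within 10 bp of the summit, in place of 20 bp, was found in 22.7%. The difference in having a distal peak within 12500 bp was 1.87 points at a fold enrichment of at least 5, -0.0647 without soft-masked summits and -0.231 for 5 kb. The difference in having an AP-1 peak as nearest neighbour was 3.03 points with the wider window. The difference in open promoters of the nearest gene was 2.20 points within 50 kb of the TSS. With the narrower window, 4034 genes were nearest to an AP-1 peak. The share of genomic sites in a peak was 5.56% at a q of 1e-05 or below, 4.52% at a fold enrichment of at least 5, 7.06% outside soft-masked sequence and 6.64% on autosomes. Beyond the settings' own construction, the cause of these shifts was not tested. No paired analysis was possible because the analysed library has no second sample.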

Other observations

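Sites that differ from the consensus by 1 base were far less accessible, but not equally so. Positions are counted from 1 at the 5′ end of TGACTCA. Against 5.76% of distal consensus sites in a distal peak, the variant A7G had 2.93% (95% Wilson interval 2.79 to 3.09%), T1C had 2.43% and T5G had 1.92%, all of which hold a CpG and are scarce in the genome. Among variants without a CpG the shares were highest for C6A, at 1.94%, for C4A, at 1.87%, and for G2T, at 1.503%. They were lowest for G2A, at 0.586%, for A3T, at 0.746%, and for C6T, at 0.753%, close to the 0.733% of the median word of 7 bases.

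A RUNX motif stood at a fixed place beside some sites, an arrangement chosen for description after their counts were seen. In 70 AP-1 peaks with 1 site, a RUNX motif on the other strand ended 3 bases before the consensus, against a median of 2 AP-1 peaks at the other positions. Over the genome this arrangement had 2200 distal sites, against a median of 40 at the other positions. Of these 2200 sites 5.05% lay in a distal peak, a lower share than the 10.8% at the other positions. Soft-masked sequence, that is repeated sequence, held 98.0% of the 2200 sites, and the site of 66 of the 70 peaks. The 70 peaks were on 17 chromosomes and had a median fold enrichment of 4.83 (95% interval 4.202 to 5.77), below the 6.31 of all AP-1 peaks. One of the tallest (chr9:88266469-88266569, plus strand, between genes, 60.7 kb from the TSS of Nt5e, fold enrichment 12.2) shows both motifs in capitals.
RUNX and AP-1 window: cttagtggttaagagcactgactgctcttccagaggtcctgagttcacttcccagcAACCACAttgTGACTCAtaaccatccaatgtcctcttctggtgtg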
